A study of Homo sapiens with 4 samples.

Results

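The 10 genes described here encode the DNA-binding subunits of NF-kB, proteins of the inhibitor of kappaB (IkB) family and the brake A20. They are NFKB1, NFKB2, RELA, RELB, REL, NFKBIA, NFKBIB, NFKBIE, NFKBIZ and TNFAIP3. They were taken by symbol from the deposited table of 63677 genes, where each symbol had 1 entry. The RNA came from MDA-MB-231, a triple-negative breast cancer line of mesenchymal type known for basal NF-kB activity. The cells received either a control siRNA (siCt, 2 libraries) or the ON-TARGET Smart Pool of siRNAs against AXL (siAXL, 2 libraries) by lipid transfection. AXL is the TAM-family receptor kinase for the ligand GAS6. The comparison asked which transcripts differ when AXL is depleted. All 4 libraries came from this 1 line and from 1 pool of siRNAs, so effects of AXL loss and of the pool on other transcripts cannot be told apart. The labels do not say that libraries of a group were separate cultures, so the p-values measure the spread between these samples, which may be technical.

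NF-kB is a family of dimers built from RELA, RELB, REL and the processed products of NFKB1 and NFKB2. The cytoplasmic IkB proteins hold these dimers outside the nucleus until the IkB kinase (IKK) complex marks the IkB proteins for degradation. The dimers then enter the nucleus and bind kappaB sites in inflammatory and survival genes. Several inhibitors, and RELB, NFKB1 and NFKB2, are themselves NF-kB targets, and most control of the pathway acts on proteins that RNA levels do not measure.

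AXL was measured first, as the targeted gene. Its normalised read count (reads divided by the size factor of the library) was 29189 and 30617 in the siCt libraries, and 8658 and 7141 in the siAXL libraries. The siAXL mean was 26.4% of the control mean, a log2 fold change of -1.93 ± 0.0918 (SE; limma adjusted p = 0.000585). Recovered reads per library ranged from 39574387 to 44585773. VIM (86751 to 99296) and CD44 (33968 to 36518) were abundant, while ESR1 and PGR did not exceed 3.25, CDH1 ranged from 22.6 to 94.3 and leukocyte PTPRC from 7.77 to 16.7. CD3E (T cells) did not exceed 0.959, ALB (liver) ranged from 2.17 to 10.7, and PECAM1 (endothelium) had 0 reads in each library, which allows up to 3. ERBB2 ranged from 2949 to 3680. Of these markers, CDH1 was lower in siAXL (90.1 and 94.3 in siCt, 36.9 and 22.6 in siAXL; limma adjusted p = 0.00847) and ERBB2 higher (log2 fold change 0.26, limma adjusted p = 0.0258), and their part in the results below was not tested. EPCAM (565 to 771) and GATA3 (248 to 303), listed as markers that should be low, were detected at intermediate levels in all 4 libraries. In bulk RNA, fewer cells of a type and less RNA per cell cannot be told apart.

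Promoter sequences of the members are shown because kappaB motifs near their starts are how NF-kB dimers can act on their own genes. RefSeq promoter windows (GRCh38.p14, 250 bases before to 50 after each start) were found for 8 of the 10 members, with no entry for RELB and NFKBIE. The 10-base kappaB consensus was searched on both strands, and overlapping matches were allowed. It was present in 9 of 14 member windows (64.3%), against 11.3% of all 35116 windows and 13.2% of the windows of tested genes. By gene it was present in 7 of 8 members (87.5%), against 17.2% of tested genes with an entry. Among the NF-kB target genes listed further below, 55.6% of those with an entry had a match. RELA was the member with a match in neither of its windows. The stretches below run 5′ to 3′ in the direction of the gene, with the bases of kappaB matches in capitals, and a run over 10 bases holds overlapping matches. For REL, NFKBIB and TNFAIP3 a short stretch of at most 30 bases is given.
NFKBIZ, first start, chr3:101827742-101827801, plus strand: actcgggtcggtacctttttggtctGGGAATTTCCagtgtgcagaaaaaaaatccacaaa
NFKBIZ, second start, chr3:101849264-101849309, plus strand: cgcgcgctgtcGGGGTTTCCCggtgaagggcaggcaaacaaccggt
NFKBIA, chr14:35404796-35404855, minus strand: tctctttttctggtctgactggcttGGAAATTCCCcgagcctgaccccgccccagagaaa
TNFAIP3, chr6:137867188-137867217, plus strand: ctttGGAAAGTCCCgtGGAAATCCCCgggc
NFKB1, chr4:102501285-102501344, plus strand: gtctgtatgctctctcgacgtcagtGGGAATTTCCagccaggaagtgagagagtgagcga
REL, chr2:60881518-60881546, plus strand: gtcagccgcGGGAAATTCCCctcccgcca
NFKBIB, chr19:38899932-38899960, plus strand: ggcgtggtgGGGAATTTCCCgcagggcgg

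The matches lay at different distances from the start. In NFKB1, REL and TNFAIP3 the first base was within 67 bases upstream (-49, -47 and -67), in NFKBIA it was at -81, and in NFKBIZ it was at -223 and -239 of the respective starts. NFKBIB had matches on both sides of its start, at -28 and 39, and NFKB2 had matches in 2 of its 3 windows. These are matches of letters, and occupancy by NF-kB was not measured.

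**Figure D1:**
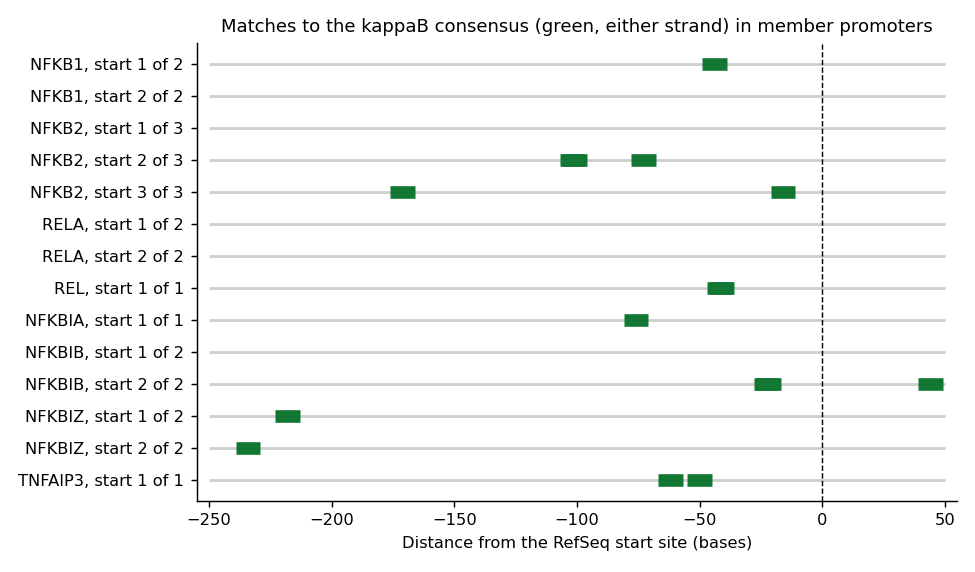
Positions of kappaB matches in the promoter windows of the members, as distance in bases from the annotated start, with 1 line per window. Matches lay on the upstream side in nearly all windows that held one, where most of each window lies (250 bases before to 50 after the start). Both RELA windows were empty.

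The 10 members differed widely in level. Normalised counts per kilobase of exon, a scale that allows genes to be compared, put NFKBIA (IkB alpha, the inhibitor resynthesised after NF-kB activation) first in siCt at 3390 ± 29.7 (SD, n = 2 for all values here). RELA (p65, the main transactivating subunit) followed at 1067 ± 28.6 and NFKB2 (p100, processed to p52) at 856 ± 37.3. NFKBIE (IkB epsilon) at 693 ± 25.5 and NFKBIZ (IkB zeta, a nuclear member of the family) at 660 ± 31.6 were the only neighbours in the order whose siCt libraries overlapped. Below them were NFKB1 (p105, processed to p50; 398 ± 2.01), NFKBIB (IkB beta; 349 ± 4.87), RELB (284 ± 9.81) and TNFAIP3 (A20, a ubiquitin-editing brake on the pathway; 259 ± 11.2). REL (c-Rel, best known from lymphocytes) was lowest at 38.1 ± 5.14. Of the 13170 exon bases of REL, 5702 are shared with AC010733.2, a gene on the same strand listed with 0 reads, so reads there may have been left uncounted. Over the other 7468 bases REL was at 67.2 ± 9, still the lowest of the members. The order of the means was the same in siAXL, where NFKBIB stood at 356 and RELB at 354 per kilobase. With the longest transcript as the length, NFKBIE and NFKBIZ changed places, as did NFKBIB and RELB.

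**Figure D2:**
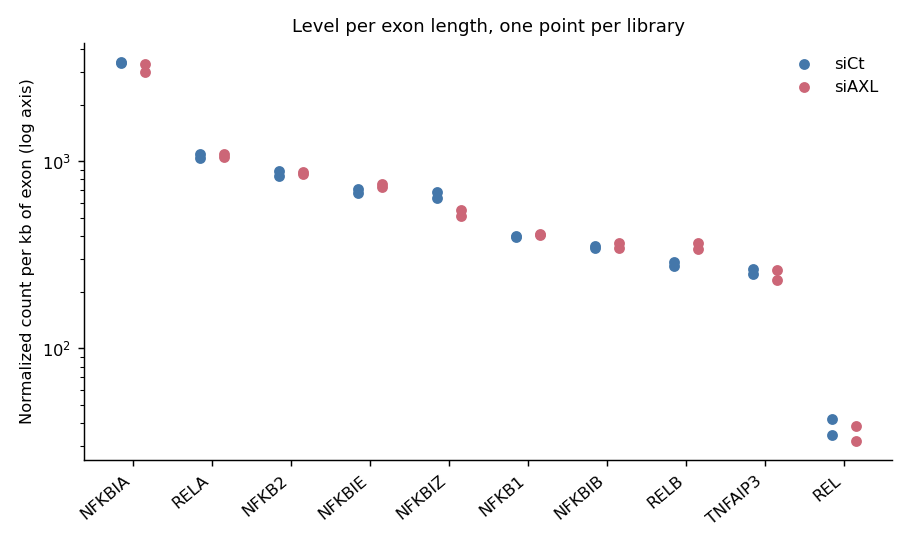
Normalised counts per kilobase of exon for the 10 members (log axis), with each library as a point and the group as colour. NFKBIA stood above all others and REL far below, and the siCt and siAXL points lay close together for most genes.

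Of the 10 members, 1 was higher (RELB) and 1 was lower (NFKBIZ) in siAXL than in siCt at a limma adjusted p under 0.05. Across all 16064 genes tested, 18.7% were called (10.8% higher, 7.91% lower), so the share among the members (20%) was close to the background. The same 2 members passed with edgeR, which called 19.4% of all genes (11.5% higher, 7.92% lower). They also passed with DESeq2, which called 20.1% of the 12949 genes it gave an adjusted p (11.5% higher, 8.57% lower). The siAXL libraries were both above the siCt libraries for 3 members and both below for 2, against 30.6% and 30.5% of all genes (61.2% together). The median log2 fold change was 0.0158 over the members and -0.00218 over all genes.

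RELB, the transactivating partner of p52 in the non-canonical pathway (ENSG00000104856), had normalised counts of 841 and 883 in siCt 1 and 2 and of 1037 and 1109 in siAXL 1 and 2. Both siAXL libraries were above both siCt libraries, with group means of 862 ± 29.8 and 1073 ± 51 (SD, n = 2). RELB was thus at 125% of the control mean, with a log2 fold change of 0.32 ± 0.075 (SE; 95% interval 0.14 to 0.49; limma adjusted p = 0.0295). The same reads gave adjusted p-values of 0.0234 with edgeR's quasi-likelihood test and 0.0384 with DESeq2. The call was lost without siAXL 1 (0.36, limma adjusted p = 0.071) and without siAXL 2 (0.27, limma adjusted p = 0.155). In such fits the group left with 1 library is assumed to vary like the other group, which gives the spread together with the pooling over genes, so a call that is kept shows little about stability.

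RELB rose while its partner subunit did not pass the test. NFKB2 (ENSG00000077150) was at 3957 and 3721 in siCt and at 3941 and 3851 in siAXL. The siAXL libraries lay within the range of the siCt libraries, and the log2 fold change of 0.02 had a 95% interval of -0.12 to 0.16 (limma adjusted p = 0.833). Within each library the log2 ratio of RELB to RELA was -2.82 and -2.70 in siCt and -2.47 and -2.43 in siAXL, a difference of 0.31. For NFKB2 the same ratio overlapped between the groups.

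The canonical subunits varied little. RELA (ENSG00000173039) had 5942 and 5721 normalised counts in siCt and 5752 and 5991 in siAXL, with overlapping groups and a log2 fold change of 0.01 (95% interval -0.12 to 0.14; limma adjusted p = 0.921). NFKB1 (ENSG00000109320) was at 2480 and 2497 in siCt and 2533 and 2567 in siAXL. The NFKB1 libraries were separated by group but by little, 102% of the control mean, with a 95% interval of -0.10 to 0.17 on the log2 scale (limma adjusted p = 0.708). REL (ENSG00000162924) was at 454 and 549 in siCt and 419 and 508 in siAXL. REL had the widest spread of the members, and its interval of -0.43 to 0.20 left room for a fall of the size seen for NFKBIZ (limma adjusted p = 0.600). A rise of the size seen for RELB lay outside it. For RELA, NFKB1 and NFKB2 the intervals reached neither size.

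**Figure D3:**
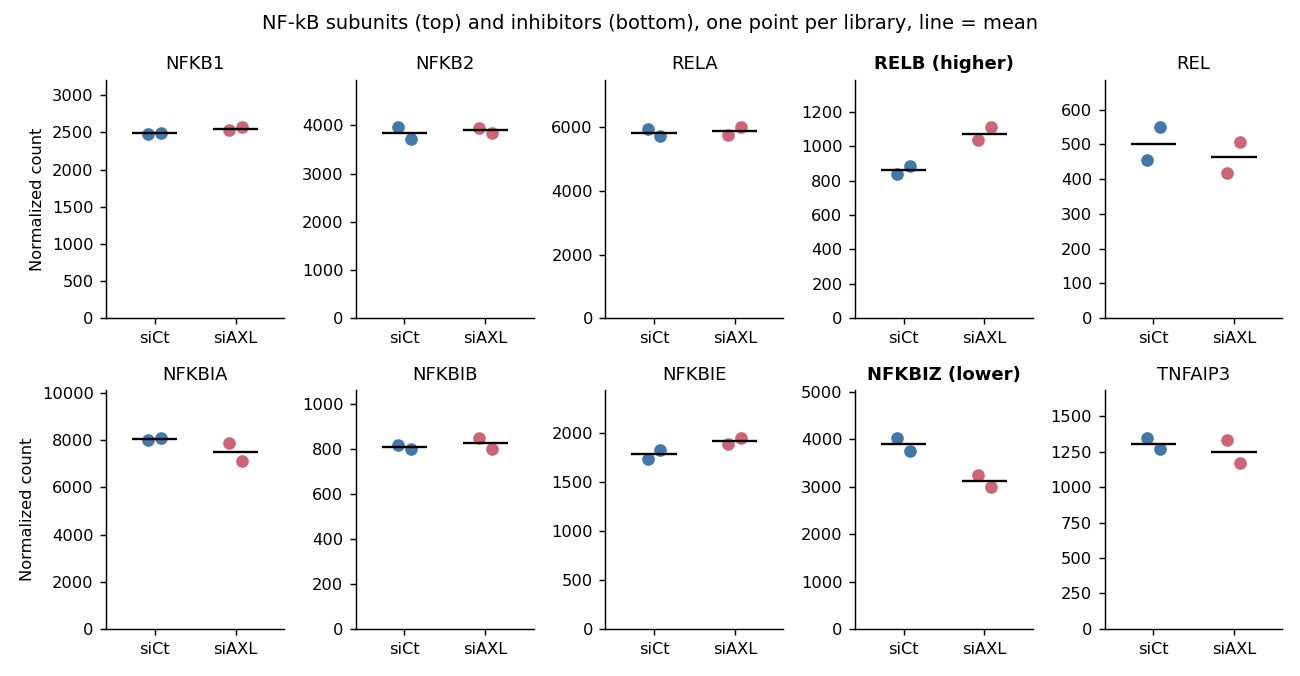
Normalised counts of the 10 members in each of the 4 libraries, with 1 panel per gene and the group mean as a line. The siAXL points were above the siCt points for RELB, NFKB1 and NFKBIE and below them for NFKBIZ and NFKBIA.

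Among the IkB family members and A20, NFKBIZ was the one that fell. NFKBIZ (ENSG00000144802), which binds p50 in the nucleus and is needed for a subset of secondary response genes, had 4024 and 3761 normalised counts in siCt 1 and 2, against 3245 and 2997 in siAXL 1 and 2. Both siAXL libraries were below both siCt libraries, with means of 3893 ± 186 and 3121 ± 175 (SD, n = 2). The siAXL mean was 80.2% of control, a log2 fold change of -0.32 ± 0.0666 (SE; 95% interval -0.48 to -0.16; limma adjusted p = 0.0201). edgeR gave an adjusted p of 0.0261 and DESeq2 one of 0.00431. The call was lost without siAXL 2 (-0.26, limma adjusted p = 0.0941) and kept without each of the other libraries. Its log2 ratio to RELA was -0.56 and -0.61 in siCt and -0.83 and -1.0 in siAXL.

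Changes of about this size were common in the table. Of all genes tested, 10.5% had a log2 fold change below that of NFKBIZ and 85.2% one below that of RELB. When every gene with at least 1 read was tested, which takes in 27108 genes, neither member passed (RELB adjusted p = 0.0761 and NFKBIZ 0.0718, limma). In that fit 4.05% of all genes were called, against 18.7% in the main fit.

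The cytoplasmic inhibitors did not pass the test. NFKBIA (ENSG00000100906) had 7994 and 8094 normalised counts in siCt and 7874 and 7108 in siAXL. Both siAXL libraries were below the controls, but siAXL 1 by little, and the log2 fold change of -0.10 had a 95% interval of -0.26 to 0.05 (limma adjusted p = 0.302). NFKBIE (ENSG00000146232) lay the other way, at 1741 and 1834 in siCt and 1891 and 1951 in siAXL. Both siAXL libraries were above both controls for NFKBIE, at 107% of the control mean (log2 fold change 0.10, 95% interval -0.04 to 0.25; limma adjusted p = 0.294). NFKBIB (ENSG00000104825) was at 819 and 803 in siCt and 850 and 803 in siAXL, overlapping, with an interval of -0.15 to 0.20 (limma adjusted p = 0.840). NFKBIB shares 40 exonic bases with SIRT2 on the opposite strand, and the strand setting of the counting is not given in the sources used here, so some of its reads may belong to SIRT2.

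TNFAIP3 (ENSG00000118503), whose product A20 removes activating ubiquitin chains, had 1346 and 1267 normalised counts in siCt and 1333 and 1168 in siAXL. The groups overlapped, and the log2 fold change of -0.07 had a 95% interval of -0.26 to 0.13 (limma adjusted p = 0.639). NFKBIA and TNFAIP3 are textbook NF-kB targets with kappaB matches at -81 and at -67 and -55. Neither passed, and among the members with a match only NFKBIZ was called, as lower. NF-kB activity was not measured.

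**Figure D4:**
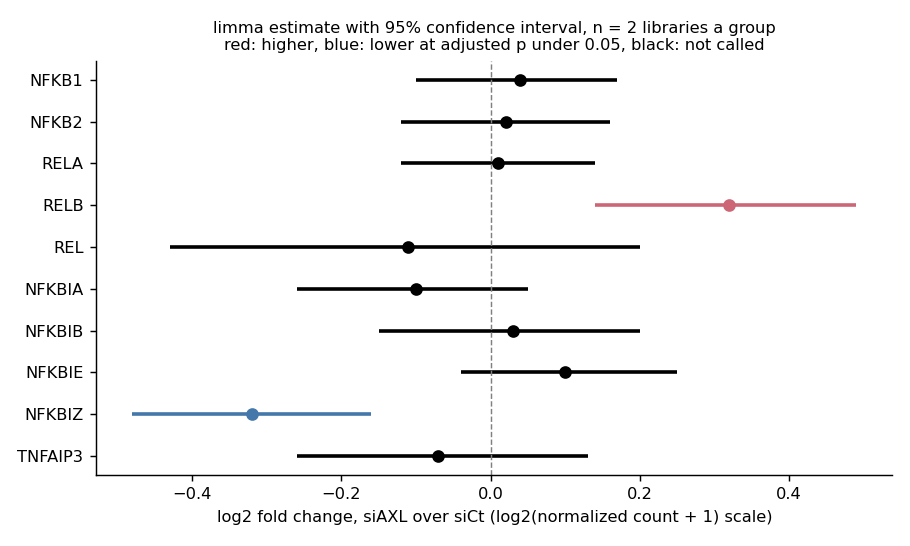
Log2 fold change of siAXL over siCt for the 10 members, with 95% intervals from limma (n = 2 libraries a group), red for higher and blue for lower calls. The intervals of RELB (0.14 to 0.49) and NFKBIZ (-0.48 to -0.16) lay apart from 0, and the other 8 crossed it.

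The rest of the pathway was described by 110 further genes in 6 lists, of which 107 were tested and EDA2R, IL18R1 and CCL5 were too low. Of these, 13 were higher and 23 lower (33.6% called, background 18.7%). The lists were chosen with earlier results of these data known, so this excess is a description and was not tested. Without siAXL 1 or siAXL 2 the number called fell from 36 to 17 or 18, while calls over all genes fell from 3006 to 1301 (8.1%) or 1518 (9.45%). With 1 library left out, most of the called genes named below lost their call in at least 1 fit, TNFRSF1A, CD40 and TNFRSF11A among them. For the genes below too, a call kept in such fits shows little about stability, for the reason given for RELB.

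The other proteins that act on IkB or Rel proteins were lower in 4 of 6 and higher in 0, with a median log2 fold change of -0.27. Of all genes tested, 7.91% were lower and 10.8% higher. NKIRAS1, a small GTPase-like protein that binds IkB beta, was at 1364 and 1398 in siCt and 987 and 989 in siAXL (log2 fold change -0.48, limma adjusted p = 0.00509). BCL3, a nuclear IkB protein that binds p50 and p52, was at 2178 and 2266 in siCt and 1750 and 1556 in siAXL (-0.43, limma adjusted p = 0.0114). Both were also called in the 4 fits with 1 library left out. NKRF, a repressor of NF-kB promoters (-0.30, limma adjusted p = 0.0411), and NKIRAS2, the relative of NKIRAS1 (-0.24, limma adjusted p = 0.0495), lost theirs without siCt 2, siAXL 1 or siAXL 2 (adjusted p up to 0.17 and 0.218). With limma on TMM-scaled counts NKIRAS2 also missed the threshold (adjusted p = 0.0554). NKIRAS1 overlaps the much more abundant RPL15 on the opposite strand, NKRF overlaps UBE2A and NKIRAS2 overlaps DNAJC7, so their reads are uncertain. NFKBIL1 (siAXL at 93.7% of control) and NFKBID (85.6%), a nuclear IkB protein, did not pass.

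Of the 12 genes of the IKK complex and its kinases, 1 was higher and 2 were lower, a share of 25% against 18.7% of all genes. CHUK, the IKK alpha subunit that acts on p100, was at 3068 and 3273 in siCt and 2590 and 2744 in siAXL (-0.25, limma adjusted p = 0.0365). MAP3K8, a kinase held inactive by the p105 product of NFKB1, fell by 0.54 on the log2 scale (limma adjusted p = 0.00967), and MAP3K3, a kinase that activates IKK, was higher by 0.32 (limma adjusted p = 0.0147). MAP3K8 was called in those fits too, CHUK lost its call without siCt 2, siAXL 1 or siAXL 2 (adjusted p up to 0.193) and MAP3K3 without siAXL 1 or siAXL 2 (up to 0.0655). TAB2 and TAB3, ubiquitin-binding partners of the kinase TAK1, did not pass, with siAXL at 100% and 92.7% of control.

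Adaptors and ubiquitin ligases gave 1 higher and 2 lower of 21, and the brakes beside A20 gave 1 and 1 of 15, shares of 14.3% and 13.3% that are below the 18.7% of all genes. MYD88, the adaptor of Toll-like and IL-1 receptors, was higher (0.36, limma adjusted p = 0.0126), a call lost without siAXL 2 (adjusted p = 0.0522). BIRC3, an inhibitor-of-apoptosis ligase and NF-kB target, was lower (-0.24, limma adjusted p = 0.028), as was the scaffold CARD10 (-0.21, limma adjusted p = 0.0433), and both lost the call without siCt 2, siAXL 1 or siAXL 2 (adjusted p up to 0.116 and 0.177). DESeq2 did not call CARD10 (adjusted p = 0.0719). PDLIM2, a ligase that terminates nuclear RELA, was at 235 and 181 in siCt and 352 and 314 in siAXL (0.69, limma adjusted p = 0.0228), a call lost without siAXL 1 (adjusted p = 0.0818). NLRC5, a regulator of MHC class I genes, was lower (-0.33, limma adjusted p = 0.0219) and lost the call without siCt 2, siAXL 1 or siAXL 2 (adjusted p up to 0.073). IRAK1 (99.3% of control), BIRC2 (112%), TNIP1 (104%) and TAX1BP1 (91.1%) did not pass. BIRC2, a relative of BIRC3, missed the threshold with limma (0.16, adjusted p = 0.0668) but passed with edgeR on TMM-scaled reads (adjusted p = 0.0456) and with limma on upper-quartile scaling (adjusted p = 0.0475).

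Receptors that signal to NF-kB were called in 10 of 17 tested (58.8%, against 18.7% of all genes), 7 higher and 3 lower. Their median log2 fold change was 0.214. TLR2, which senses bacterial lipopeptides, was at 524 and 485 in siCt and 941 and 956 in siAXL (0.91, limma adjusted p = 0.00184). IL1RAP, the shared chain of IL-1 family receptors (0.47, limma adjusted p = 0.00562), and TLR4, the lipopolysaccharide receptor (0.40, limma adjusted p = 0.00854), were also higher, and all of these were called in each fit with 1 library left out. TLR1 was low in all libraries (26.8 to 57; 0.87, limma adjusted p = 0.0359), shares sequence with TLR6 and lost its call without siCt 1, siAXL 1 or siAXL 2 (adjusted p up to 0.147). Receptors of the TNF family were called in both directions. Higher were TNFRSF11A, the receptor RANK (0.38, limma adjusted p = 0.0308), CD40 (0.30, limma adjusted p = 0.0433) and TNFRSF1A, the main TNF receptor (0.24, limma adjusted p = 0.0279). TNFRSF11A lost its call without siAXL 1 or siAXL 2 (adjusted p up to 0.134), TNFRSF1A without siCt 1 or either siAXL library (up to 0.151) and CD40 whichever library was left out (up to 0.204). Lower were TNFRSF1B (-0.52, limma adjusted p = 0.0295), TNFRSF12A, the TWEAK receptor (-0.32, limma adjusted p = 0.0105), and TNFRSF10B, a TRAIL receptor (-0.21, limma adjusted p = 0.0316). TNFRSF12A lost its call without siAXL 1 (adjusted p = 0.0588), TNFRSF1B without siCt 2 or either siAXL library (up to 0.13) and TNFRSF10B whichever library was left out (up to 0.159). The abundant receptors TNFRSF21 (98.6% of control) and LTBR (103%), the lymphotoxin receptor upstream of RELB, did not pass. Leaving out 1 library gave 3 to 6 receptors higher and 0 to 2 lower. DESeq2 called 4 higher and 3 lower, without CD40 (adjusted p = 0.113), TNFRSF11A (adjusted p = 0.0831) and TLR1, to which it gave no adjusted p.

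Of 36 tested target genes, 3 were higher and 11 lower (38.9% called), against 10.8% higher and 7.91% lower of all genes. Their median log2 fold change was -0.202. CSF2, which encodes the cytokine GM-CSF, was at 5357 and 5823 in siCt and 2333 and 2285 in siAXL (-1.27, limma adjusted p = 0.000585). LCN2, an iron-siderophore binding protein whose induction needs NFKBIZ in other cells, was at 1810 and 2795 in siCt and 585 and 841 in siAXL (-1.68, limma adjusted p = 0.00504). The neutrophil chemokines CXCL3 (-1.58, limma adjusted p = 0.00219) and CXCL2 (-0.86, limma adjusted p = 0.00577) were lower too, and all of these were called in each fit with 1 library left out. CXCL1, CXCL2 and CXCL3 are close copies that can share reads, and CXCL1 did not pass (81.2% of control, limma adjusted p = 0.0921). Their promoters carry the same 11-base kappaB run, shown here because their values differed among the 3 genes.
CXCL1, chr4:73869289-73869349, plus strand: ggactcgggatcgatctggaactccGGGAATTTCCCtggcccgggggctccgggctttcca
CXCL2, chr4:74099254-74099282, minus strand: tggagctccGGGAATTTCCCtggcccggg
CXCL3, chr4:74038733-74038793, minus strand: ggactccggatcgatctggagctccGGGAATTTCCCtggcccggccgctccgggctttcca

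The 3 targets called higher by limma were ICAM1, IL32 and MMP9. DESeq2 called 2 target genes higher and 12 lower, against 11.5% and 8.57% of the genes it gave an adjusted p. ICAM1, an adhesion molecule for leukocytes, was at 7009 and 7267 in siCt and 8438 and 9298 in siAXL (0.31, limma adjusted p = 0.0196), a call lost without siAXL 2 (adjusted p = 0.098). IL32 was higher by 0.58 (limma adjusted p = 0.00524) and was called in each of those fits. MMP9 was low, at 10.5 and 10.8 in siCt and 21.4 and 26.5 in siAXL (1.09, limma adjusted p = 0.0477), and lost its call whichever library was left out (adjusted p up to 0.217). CSF1 (91.7% of control) and BCL2L1 (107%), the most abundant targets not called, did not pass. Motif matches were present in 15 of 27 target genes with a promoter entry and in 38.1% of their windows.

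**Figure D5:**
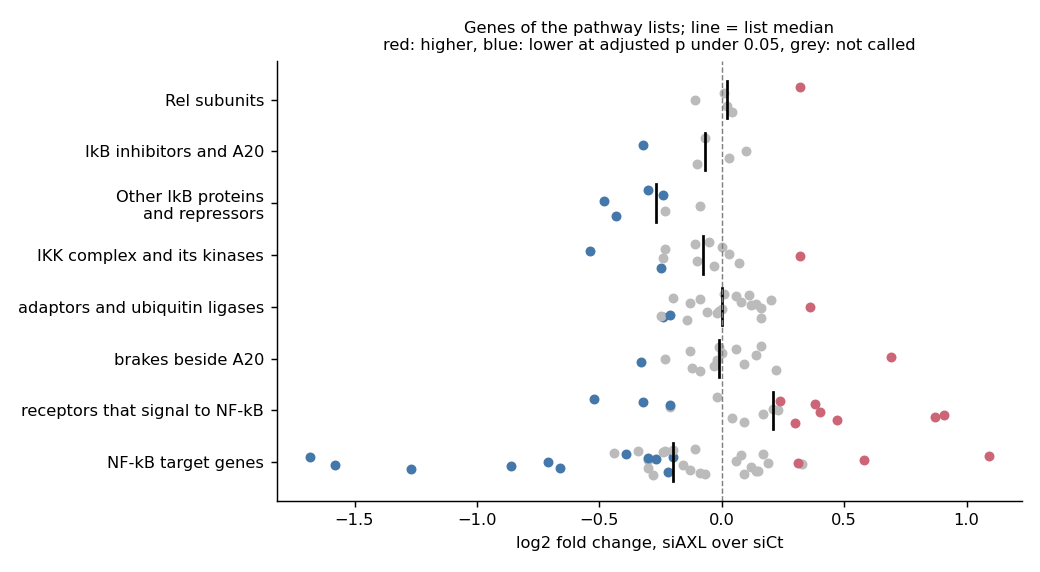
Log2 fold changes of siAXL over siCt for every tested gene of the member groups and the 6 pathway lists, with genes called higher in red, called lower in blue, others in grey, and the list median as a line. The receptor list had its median at 0.214 and the target list at -0.202, while the members lay between -0.32 and 0.32.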

How the data were processed

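RNA of 4 libraries of MDA-MB-231 cells was sequenced, 2 per group by their labels. The authors deposited 1 table whose normalised count columns (a signal: reads per gene over each library's DESeq2 size factor) were used. Its columns of the authors' own log2 fold changes, Wald scores and p-values were deposited beside them and were not used. The submitters' processing notes name CASAVA 1.8, TopHat2 2.0.10, HTSeq 0.5.3, DESeq2 1.4.5 and GRCh37; the annotation and strand setting are not given in the sources used here. Whole reads were recovered by dividing by what 1 read is worth, and 100% of values in each library came out whole within 0.01. Columns of samples left unused numbered 0.

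Genes were kept by edgeR filterByExpr on the recovered reads (16064 tested, 47613 left out). The test was limma 3.58.1 (R 4.3.3, trend, two-sided) on log2(normalised count + 1) with Benjamini-Hochberg adjustment over all genes tested, a gene being called at an adjusted p under 0.05; fold changes are on that scale and understate the change of low genes. Alternatives were edgeR 4.0.16, DESeq2 1.42.0, other scalings, pseudocounts and filters, and each library left out. The scripts were tested on simulated data. With 2 against 2 libraries the smallest two-sided p of an exact permutation test is 0.333, and the p-values rest on spread pooled over genes. Averaged over genes, replicates of a group differed by more than counting noise (mean chi-square per gene 21.6 in siCt and 19.6 in siAXL). Abundant genes can raise such a mean, so it need not be the spread of a typical gene.

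Exon lengths and overlapping genes came from GENCODE 29, and promoter windows from RefSeq (GRCh38.p14). The members and lists were chosen with earlier results of these data known. All 10 members and AXL are named, and from each list up to 4 called genes per direction by size of change and up to 2 of the most abundant genes not called. CXCL1, TNFRSF1A, CD40, TNFRSF11A, EDA2R, IL18R1 and CCL5 and the overlapping genes are named outside that rule, after their values were seen. Other treatments of the study were not analysed here.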

Additional observations from a re-analysis of the deposited data

How the results depend on the processing

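RELB and NFKBIZ kept their direction in all alternatives and their call in 8 of 9 that used all 4 libraries without a block. The exception was testing every gene with a read, where 0 of the 10 members and 14 pathway genes (36 in the report) passed. Calls over all genes fell as well, to 1097 of 27108 (4.05%, against 18.7% in the report). With 1 library left out, 0 to 2 members and 17 to 36 pathway genes passed, against 1301 to 3900 of all genes (8.1% to 24.3%). The cause was not tested. Scaling by library size alone reversed the small changes of NFKB2 (-0.00738), RELA (-0.0195), NFKBIB (-0.00256) and TAB2 (-0.0283), and called 1536 genes higher and 1745 lower of all, against 1735 and 1271. With 1 library left out, log2 fold changes crossed 0 for NFKB2 (-0.0226 to 0.0663), RELA (-0.0197 to 0.0391), REL (-0.253 to 0.0253), NFKBIB (-0.0144 to 0.0677), TNFAIP3 (-0.16 to 0.0302), TAB2 (-0.0594 to 0.0612), IRAK1 (-0.0606 to 0.0395) and TNFRSF21 (-0.048 to 0.00763). None of these genes was called.

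Samples of the groups share only a replicate number, and over genes the difference between replicates correlated at 0.271 between the groups. With the number as a replicate block in limma, 3 of the 10 members passed (NFKBIA in addition, limma adjusted p = 0.0191), as did 66 pathway genes. Of all genes 7310 (45.5%) passed, a larger share than among the members. With 2 libraries per group the spread between them, which exceeded counting noise on average over genes, limits precision.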

Other observations

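Among the tested genes with a RefSeq promoter entry, the 1773 with a kappaB match had a median log2 fold change of 0.0266 and the 8509 without one a median of -0.0082. Of those with a match 13.9% were called higher and 7.33% lower, against 12.3% and 9.32% of those without. Among target genes with a promoter entry, a match was present in 5 of the 7 called lower and in 1 of the 2 called higher. It was present in 15 of all 27 target genes with an entry, and in 17.2% of all tested genes with one. These are descriptions of a comparison chosen after the values were seen, and the difference was not tested.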
